A study of Mus musculus with 2 samples.

Results

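The genes described here are antiviral effector genes that interferons switch on, 47 genes chosen by name from the 55487 gene rows of a count table. They were taken by their GENCODE symbols, with no filter on measured values, and each of the 47 matched exactly 1 row. Earlier results of these data were known when the list was chosen. The table came from RNA sequencing of Langerhans cells (antigen-presenting cells that reside in epidermis), which had been sorted from mouse ears by langerin (CD207) and MHC class II. All cells came from mice labelled HTR2A-/-, which lack the serotonin 2A receptor, and all were cultured for 24 hours with imiquimod, a Toll-like receptor 7 agonist, and an agent labelled a-CD40L. The labels give 1 group of 2 samples and no strain, age or number of mice, and the series title calls the cells monocyte-derived. Cells of other genotypes or without treatment were not analysed here, so every value is a level in stimulated knockout cells or a difference between replicates, with no residual spread for a test of that difference.

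Type I interferons bind the receptor chains IFNAR1 and IFNAR2, whose kinases JAK1 and TYK2 phosphorylate STAT2 and other signalling proteins. With IRF9, STAT2 joins a complex that binds the interferon-stimulated response element in promoters and turns on many genes. Some of these genes, among them the IFIT family and Rsad2, can also be switched on directly by IRF3 and IRF7 after a nucleic acid sensor or Toll-like receptor fires. Their products act at successive steps of a viral infection: membrane proteins hinder entry and release, nucleic acid-binding proteins detect or block viral RNA, enzymes degrade or modify nucleic acids, and the ubiquitin-like protein ISG15 tags other proteins.

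The libraries differed in depth and in markers of cell content. Library 1 held 69925160 counts and library 2 held 42264685 counts. The members had between 100 and 17783 counts each, so counting error was small. Cd207 was at 1125 and 1052 CPM (counts per 1000000 counts of the library) in libraries 1 and 2, and 12 of 12 genes of a Langerhans cell list were above background in both libraries. That list summed to 22290.0 CPM in library 1 and 12576 in library 2. A keratinocyte list (13 of 14 genes above background) summed to 4824 and 16893 CPM, and a list of mature dendritic cells (9 of 12 genes) to 3589 and 964 CPM, with no gene of the 3 lists at 0 counts. Lists of T cells (6 of 8 genes above background in both), neutrophils (6 of 6) and fibroblasts (0 of 6) summed to 220.2, 332 and 114 CPM in library 1 and to 132, 632 and 42.7 in library 2. In library 1 alone 8 of 8 T cell and 4 of 6 fibroblast genes passed, against 56.2% of protein-coding genes. In the neutrophil list S100a9 (182 and 425 CPM), S100a8 (63.6 and 165) and Cxcr2 were higher in library 2. Csf3r (56.3 and 15.2 CPM), Mmp9 and Retnlg were lower. In the T cell list Thy1 (30.9 and 68.3 CPM) and Trac were higher, and the rest, among them Cd3g (65.1 and 16.2), lower. Htr2a, the targeted gene, had 1.10 CPM in library 1 and 2.77 in library 2, which checks no label, since the deleted part is not given. Xist had 3.90 and 1384 CPM and Ddx3y, on the Y chromosome, 149 and 0.0946 CPM. Library 1 thus had the pattern of male cells and library 2 that of female cells. Sex cannot be told apart from other differences between the libraries. The part of these differences in the results below was not tested, and in bulk RNA fewer cells of a type and less RNA per cell cannot be told apart.

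Nearly all members were expressed, and 44 of 47 (93.6%) lay above background in both libraries, against 47.3% of 21974 protein-coding genes. Background was taken from 1135 olfactory receptor genes, which these cells are not known to use. Its limit, their 95th percentile in CPM per kb of exon, was 0.761 in library 1 and 1.58 in library 2. In library 1 alone 47 of 47 members passed, against 56.2% of protein-coding genes. In library 2 alone 44 passed, against 50.4%. The exceptions there were Ifit2 and Ifi44, at percentiles 79.0 and 40.9 of the olfactory receptor genes, and Xaf1 at percentile 94.4. The median member was at 10.3 CPM per kb in library 1 and 6.12 in library 2, against 1.10 and 1.60 for all protein-coding genes. Of the members, 37 in library 1 and 28 in library 2 ranked at or above percentile 75 of protein-coding genes.

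Levels spanned a wide range, and the small membrane proteins IFITM3 and IFITM2 led. Per kb of exon, Ifitm3 was at 119 CPM in library 1 and 148 in library 2, or 133 ± 20.7 CPM per kb (SD, n = 2). Ifitm2 was at 152 and 100.1 CPM per kb. These were the top 2 members in both libraries, and no other member exceeded 67.2 CPM per kb in either. The lowest was Ifi44, an interferon-induced cytoplasmic protein, at 0.954 and 0.556 CPM per kb. All 47 members together made up 2270 CPM in library 1 and 1774 in library 2, or 0.227% and 0.177% of all counts.

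**Figure D1:**
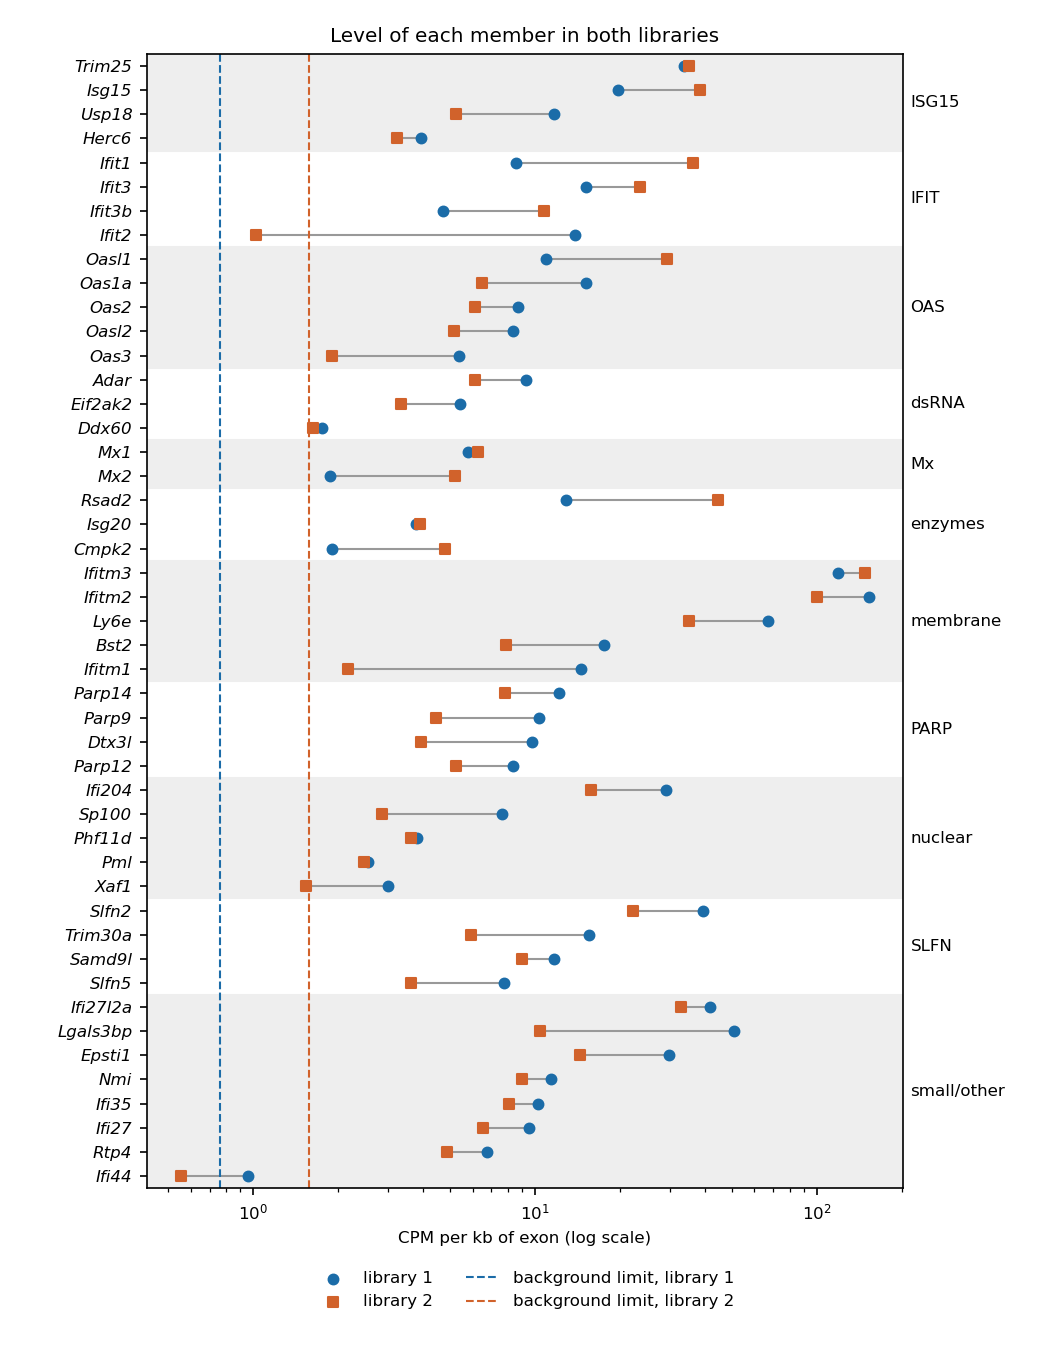
Each row is a member, grouped by role (labels at right: ISG15 system, IFIT proteins, OAS proteins, double-stranded RNA proteins, Mx proteins, nucleotide and RNA enzymes, membrane proteins, PARP proteins, nuclear proteins, Schlafen proteins with SAMD9L and TRIM30A, and others), and the x axis gives CPM per kb of exon on a log scale in library 1 (circles) and library 2 (squares). Dashed lines mark the background limits of 0.761 (library 1) and 1.58 (library 2) CPM per kb, and Ifit2, Xaf1 and Ifi44 are the members with a square to the left of the library 2 line.

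Promoters of the members often carried the response element to which the interferon-activated complex binds. A RefSeq window (GRCm38.p6, 250 bases before to 50 bases after a start) was present for 36 members. The core searched was TTTC, any 2 bases and TTTC again, on both strands (GAAA, any 2 bases and GAAA on the other), with overlapping matches counted. A match lay in the window of 14 of 36 members (38.9%), against 3.99% of 27025 genes in the same table. The letters TTCNNNGAA of the gamma-activated site lay in 8 of 36 (22.2%), against 9.55% of genes. No member had more core matches than Isg15, with 3 overlapping ones between 78 and 57 bases before its start. A match is a description of letters, not of binding.

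The stretches below show the matches of 9 of the 14 members, chosen as examples in several roles, and for contrast the stretch before Ifit2, which had the lowest ratio. The stretches are Ifit1 (chr19:34640755-34640843, plus strand), Rsad2 (chr12:26456533-26456602, minus strand), Isg15 (chr4:156200845-156200926, minus strand), Ifit3 (chr19:34583343-34583446, plus strand), Ifit3b (chr19:34607739-34607842, plus strand), Bst2 (chr8:71537557-71537632, minus strand), Oas1a (chr5:120907526-120907575, minus strand), Oas3 (chr5:120777695-120777764, minus strand), Ddx60 (chr8:61928004-61928086, plus strand) and Ifit2 (chr19:34550594-34550693, plus strand). All read 5′ to 3′ on the gene's strand, with the core matches in capitals. Those of Ifit3 and Ifit3b, neighbouring genes with similar transcripts, did not differ at any of 104 bases. The last one, before the start of Ifit2, holds no match. With 1 mismatch allowed, Ifit2 did have a match in a window. Oasl1 and Cmpk2, which were higher in library 2, had no exact match either.
Ifit1: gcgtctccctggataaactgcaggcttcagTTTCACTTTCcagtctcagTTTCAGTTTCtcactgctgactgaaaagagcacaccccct
Rsad2: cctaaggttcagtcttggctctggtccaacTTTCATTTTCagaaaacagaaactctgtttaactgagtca
Isg15: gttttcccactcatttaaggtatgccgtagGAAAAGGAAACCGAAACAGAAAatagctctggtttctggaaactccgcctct
Ifit3: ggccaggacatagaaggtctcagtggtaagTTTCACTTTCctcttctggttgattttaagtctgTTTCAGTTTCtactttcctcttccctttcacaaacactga
Ifit3b: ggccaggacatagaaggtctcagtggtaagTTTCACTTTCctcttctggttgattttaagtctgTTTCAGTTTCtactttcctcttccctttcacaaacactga
Bst2: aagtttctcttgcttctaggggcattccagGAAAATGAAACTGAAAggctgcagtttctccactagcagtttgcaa
Oas1a: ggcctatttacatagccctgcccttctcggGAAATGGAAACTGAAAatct
Oas3: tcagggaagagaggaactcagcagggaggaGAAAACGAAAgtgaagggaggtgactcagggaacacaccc
Ddx60: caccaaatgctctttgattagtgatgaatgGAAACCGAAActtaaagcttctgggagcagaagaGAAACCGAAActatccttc
Ifit2: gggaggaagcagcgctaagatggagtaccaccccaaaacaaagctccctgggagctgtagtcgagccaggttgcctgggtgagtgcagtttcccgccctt

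**Figure D2:**
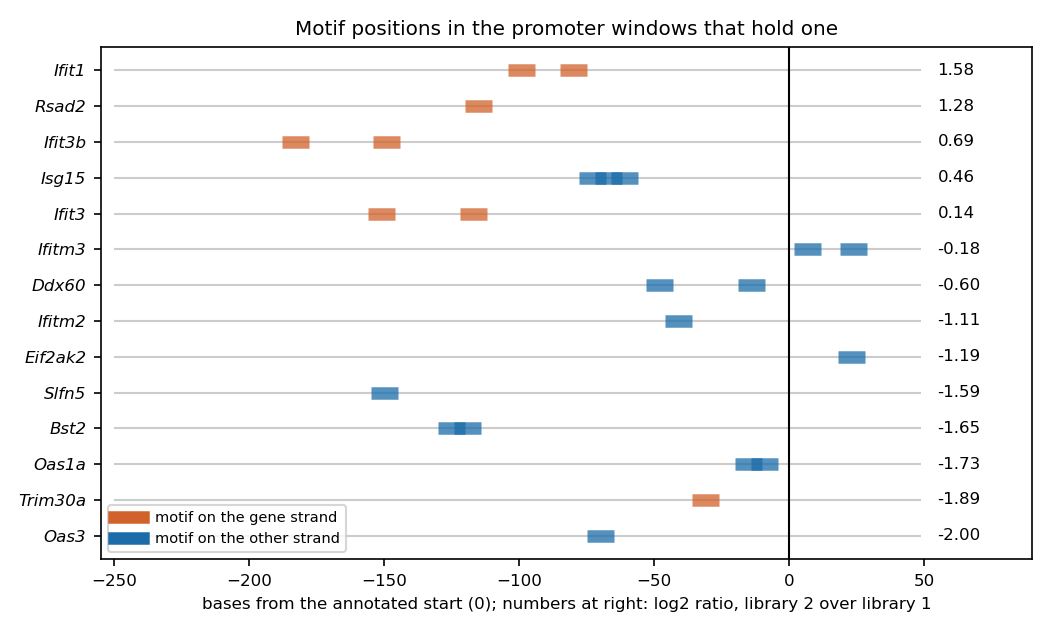
For the 14 members with a core match, bars mark each match at its distance in bases from the annotated start (0 on the x axis) in the first listed promoter window, on the gene's strand (orange) or the other strand (blue); numbers at right are log2 ratios of library 2 over library 1. The matches of Ifitm3 and Eif2ak2 lie after the start and those of the other 12 before it.

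The libraries did not differ by a common factor over the members. After TMM scaling, which sets the bulk of genes equal between libraries, the log2 ratio of library 2 over library 1 had a median of -1.10 over the 47 members and ran from -4.25 (Ifit2) to 1.58 (Ifit1). The median was 0.15 over all 30373 tested genes (at least 1 CPM in at least 1 library) and -0.33 over the 14042 of them above background in both libraries. At least 2-fold lower in library 2 were 26 of 47 members (55.3%), against 12.6% of tested genes and 18.5% of those above background. At least 2-fold higher were 2 of 47 (4.26%), against 24.5% and 6.23%. With total counts in place of TMM, which moves the median of all genes to 0.65, 13 members were at least 2-fold lower and 6 at least 2-fold higher. The median of the members lay 1.25 below that of all tested genes under both scalings. This equality follows from arithmetic, since the scalings shift all log2 ratios by nearly the same amount. Among genes above background in both libraries, the TMM medians were -1.03 for 44 members and -0.33 for all 14042. Of the Langerhans cell list, 8 of 12 genes were at least 2-fold lower in library 2, with a median log2 ratio of -1.33, so lower values were not particular to the members.

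**Figure D3:**
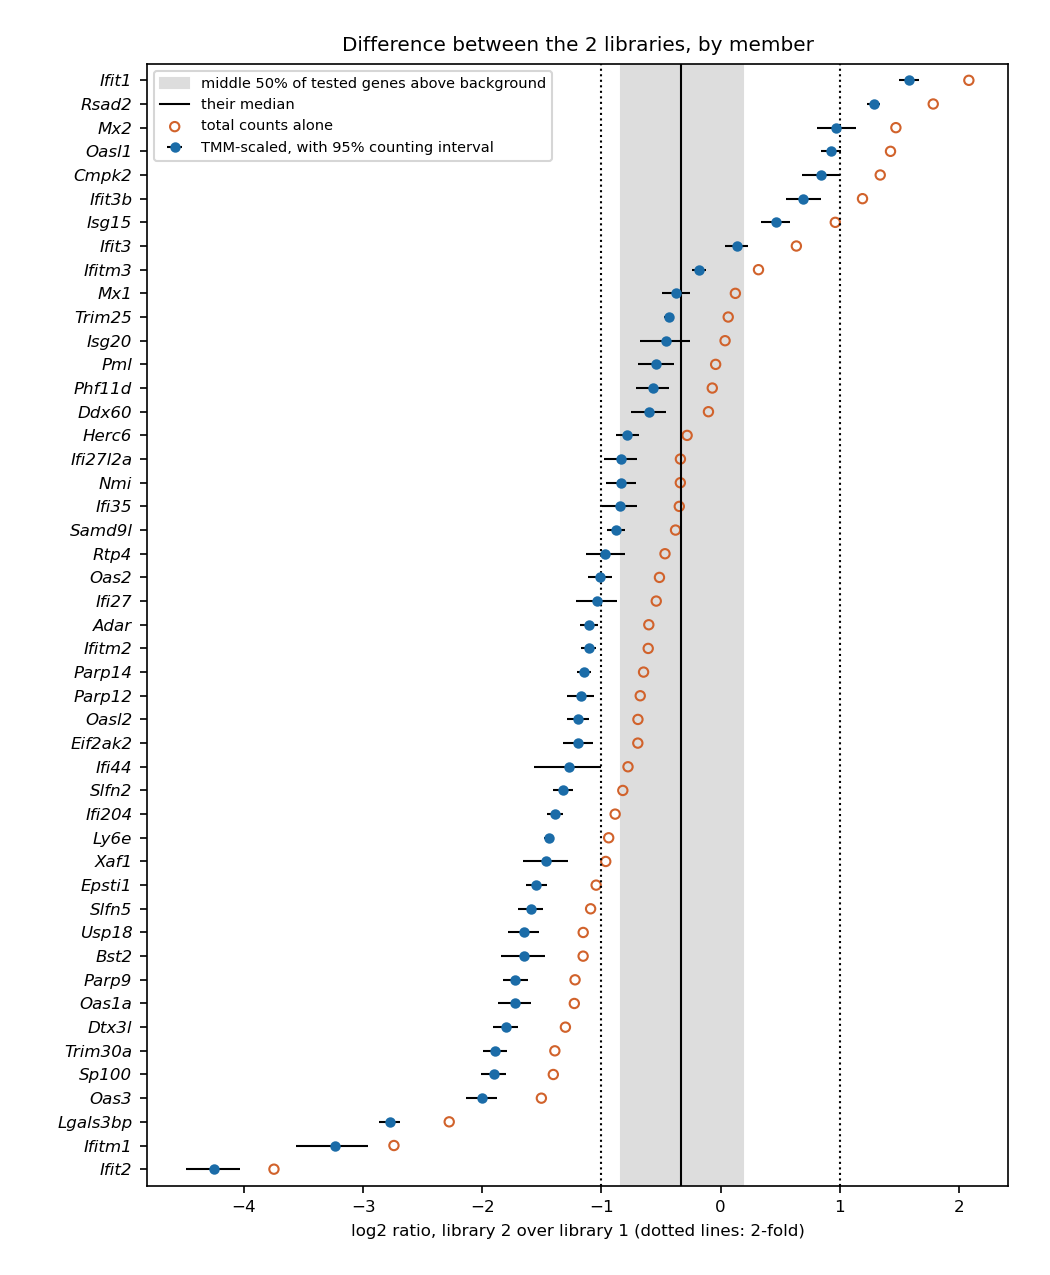
Members are ordered by the log2 ratio of library 2 over library 1 (x axis). Filled points are TMM-scaled with 95% intervals for counting error, open circles use total counts alone, and the grey band spans the interquartile range of tested genes above background. Ifit1 and Rsad2 lie right of the 2-fold line, 26 members lie left of it, and Ifitm3, Mx1, Trim25 and Isg20 change side of 0 with the scaling.

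A minority of members was higher in library 2. These were Ifit1, Rsad2, Mx2, Oasl1, Cmpk2, Ifit3b, Isg15 and Ifit3, which had the same sign with TMM, DESeq2 size factors, total counts and background subtraction. Ifit3 was nearly equal between the libraries, with log2 ratios of 0.14 (TMM, 0.04 to 0.23 for counting error) and 0.03 (DESeq2), so its sign is uncertain. With TMM, 8 members (against 55.2% of tested genes and 33.0% of those above background) were higher and 39 lower, and with total counts 12 were higher. Of the 8, 7 had a promoter window and 5 of these held the core response element. Of the lower members 29 had a window and 9 held it. The split was made on the measured values, so these shares carry no test, and Ifit3 and Ifit3b share their sequence.

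The IFIT genes, whose products bind foreign RNA and block its translation, showed both extremes. They lie together on chromosome 19 between 34550694 and 34650009 (GRCm38). Ifit1, which recognises RNA caps that lack a host methyl mark, was at 22.8 CPM (95% Poisson interval 21.7 to 23.9) in library 1 and 96.6 (93.7 to 99.6) in library 2. Ifit2, an RNA-binding protein of the same family at the other end of the cluster, was at 54.3 CPM (52.5 to 56.0) and 4.02 CPM (3.44 to 4.67). Ifit1 was thus 4.24 times higher in library 2 by CPM and Ifit2 13.5 times higher in library 1, where it exceeded Ifit1. Ifit2 lay within background in library 2, so values that use it there rest on a background-level count, and its log2 ratio was -4.25 as counted and -5.64 with background subtracted. Per kb of exon the ratio of Ifit1 to Ifit2 was 0.620 in library 1 (95% interval 0.585 to 0.658) and 35.5 in library 2 (30.5 to 41.6). These members took opposite orders in the replicates.

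Ifit3 and Ifit3b lie between them in the genome and were closer to equal. Ifit3, a partner of IFIT1, was at 26.4 CPM in library 1 and 41.1 in library 2, and Ifit3b at 9.40 and 21.5 CPM. Of the 75-base stretches of Ifit3 transcripts 41.1% also occur in Ifit3b, and 35.7% of those of Ifit3b occur in Ifit3, so how reads were split between this pair is not known. Ifit2 shared no such stretch with another gene, and Ifit1 shared 5.19%.

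Rsad2 and Cmpk2 were higher in library 2, as Ifit1 was. Rsad2 encodes viperin, which makes a nucleotide that terminates viral RNA chains, and was at 55.9 CPM (95% Poisson interval 54.1 to 57.7) in library 1 and 193 (188 to 197) in library 2. Its log2 ratio was 1.28, with an interval of 1.23 to 1.34 for counting error. Cmpk2, a mitochondrial nucleotide kinase that supplies the substrate of viperin, is its neighbour on chromosome 12 (26442746 to 26479837 for the pair) and was at 7.89 and 20.02 CPM, a log2 ratio of 0.84. Per kb of exon the ratio of Rsad2 to Cmpk2 was 6.80 in library 1 and 9.24 in library 2. Isg20, an exonuclease that degrades RNA, was at 7.05 and 7.24 CPM, which gave log2 ratios of -0.46 (TMM) and 0.04 (total counts).

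The ISG15 system was uneven. Isg15, which encodes a ubiquitin-like modifier, was at 14.9 CPM in library 1 and 29.1 in library 2, which gave log2 ratios of 0.46 (TMM) and 0.96 (total counts). Usp18, which removes ISG15 from proteins and dampens signalling at the interferon receptor, was at 32.4 and 14.6 CPM, a log2 ratio of -1.65. The ratio of Isg15 to Usp18 per kb of exon was 1.70 in library 1 (95% interval 1.58 to 1.83) and 7.37 in library 2 (6.69 to 8.14). Modifier and protease took different directions between the replicates. Herc6, the main mouse ligase that attaches ISG15, was at 36.6 and 30.1 CPM. Trim25, a ubiquitin ligase that activates the RNA sensor RIG-I, was the most abundant of the 4 at 194 and 203 CPM, or 198 ± 6.27 CPM (SD, n = 2).

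Of the oligoadenylate synthetase genes, 4 of 5 were at least 2-fold lower in library 2, against 12.6% of tested genes and 18.5% of those above background. The enzymes make short oligoadenylates on double-stranded RNA, which activate RNase L. Oas3 was at 38.1 CPM in library 1 and 13.4 in library 2, a log2 ratio of -2.004. Per kb of exon Oas3 stood near the background limit of library 2, at 1.90 against 1.58. With background subtracted its log2 ratio was -2.54. Oas1a was at 28.7 and 12.2 CPM, Oas2 at 38.9 and 27.2 CPM, and Oasl2 at 53.1 and 32.8 CPM. With total counts only Oas3 and Oas1a of these 4 were past 2-fold.

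Oasl1, a family member without synthetase activity that limits translation of Irf7 mRNA, was the exception at 28.6 and 76.8 CPM. Its log2 ratio was 0.93 with TMM and 1.43 with total counts, while that of Oasl2, its neighbour on chromosome 5 (114896936 to 114937915 for the pair), was -1.19 and -0.69. The ratio of Oasl1 to Oasl2 per kb of exon was 1.32 in library 1 (95% interval 1.24 to 1.39) and 5.72 in library 2 (5.37 to 6.10). Of the 75-base stretches of Oas1a transcripts 47.6% also occur in Oas1g, so the value of Oas1a is uncertain, while the other 4 shared none.

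Among the other proteins that act on double-stranded RNA, Adar, the enzyme that edits adenosine in RNA, was at 75.2 CPM in library 1 and 49.6 in library 2. Eif2ak2, which encodes the kinase PKR that halts translation, was at 27.6 and 17.0 CPM. Ddx60, a helicase linked to RNA sensing, was at 15.2 and 14.2 CPM, but per kb of exon it stood just above the background limit of library 2, at 1.63 against 1.58. All of these had negative log2 ratios, of -1.10, -1.19 and -0.60. Adar shares 16.8% of its exon bases with Chrnb2 on the opposite strand, and the use of strand in counting is not given in the sources used here.

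The Mx genes encode dynamin-like GTPases that trap viral particles, and common inbred mouse strains carry defective copies. Mx1 was at 21.8 CPM in library 1 and 23.8 in library 2. Mx2, annotated as a polymorphic pseudogene, was at 6.78 and 18.8 CPM, a log2 ratio of 0.97. The ratio of Mx1 to Mx2 per kb of exon was 3.07 in library 1 (95% interval 2.77 to 3.41) and 1.21 in library 2 (1.10 to 1.32). Mx1 exceeded Mx2 in both libraries, by a smaller factor in library 2.

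Membrane proteins were the most abundant role and differed widely in their ratio between the libraries. Ly6e, a lipid-anchored surface protein that restricts coronaviruses, was at 254 CPM in library 1 and 133 in library 2, or 194 ± 86.003 CPM (SD, n = 2). Bst2 encodes tetherin, which holds budding virions at the cell surface and also marks mouse plasmacytoid dendritic cells, and was at 15.9 and 7.12 CPM. Siglech, a defining marker of those cells, was at 1.03 and 4.14 CPM, below the background limit per kb in both libraries. Of 8 genes of the plasmacytoid list 1, Ly6d, which keratinocytes also express, was above background in both libraries. In library 1 alone 4 of 8 passed, against 56.2% of protein-coding genes. The list summed to 111 and 153 CPM, of which Ly6d made up 45.68 and 98.97 CPM. Of its 7 tested genes, 3 were at least 2-fold lower in library 2 (against 12.6% of all tested genes). Siglech was the 1 at least 2-fold higher (against 24.5%).

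The IFITM proteins block fusion of viral and cellular membranes and lie together on chromosome 7 between 140954837 and 141010770. Ifitm1 was at 15.9 CPM (95% Poisson interval 15.0 to 16.9) in library 1 and 2.37 (1.93 to 2.88) in library 2, 6.73 times higher in library 1. Ifitm3 was at 80.4 and 100.3 CPM, and Ifitm2 at 99.9 and 65.6 CPM. Per kb of exon Ifitm3 exceeded Ifitm1 8.15 times in library 1 and 68.4 times in library 2, and Ifitm2 exceeded Ifitm3 1.29 times in library 1 but was 0.677 of it in library 2. Thus 3 neighbours of 1 family gave log2 ratios of -3.24, -1.11 and -0.18. Ifitm1 stood near the background limit in library 2, at 2.16 CPM per kb against 1.58. Ratios that use Ifitm1 there rest on a count near background, and its log2 ratio was -3.72 with background subtracted. Of the 75-base stretches of Ifitm2 transcripts 33.4% also occur in Gm45717, which overlaps it, whereas Ifitm1 and Ifitm3 shared under 1% with any gene.

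The PARP genes were uniform in direction. Parp14, Parp9 and Parp12 encode ADP-ribosyltransferases, and Dtx3l encodes a ubiquitin ligase that works as a complex with PARP9. All 4 were at least 2-fold lower in library 2 with TMM, against 12.6% of tested genes and 18.5% of those above background. Their log2 ratios ran from -1.80 to -1.15, and with total counts only Parp9 and Dtx3l were past 2-fold. Parp14 was at 114 CPM in library 1 and 72.6 in library 2, and Parp12 at 33.4 and 20.9 CPM. Parp9 was at 50.5 and 21.6 CPM and Dtx3l at 55.6 and 22.5 CPM, and the ratio of Parp9 to Dtx3l per kb of exon was 1.07 in library 1 and 1.13 in library 2. These partners start next to each other in opposite directions and overlap over 458 exon bases, so a small part of their counts cannot be assigned.

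Nuclear members were lower in library 2. Ifi204, a DNA sensor of the PYHIN family, was at 104 CPM in library 1 and 56.2 in library 2, and 11.3% of its 75-base stretches also occur in Ifi211. Sp100, a nuclear body protein, was at 57.4 and 21.7 CPM, a log2 ratio of -1.90. Its partner Pml, the scaffold of these bodies, was at 14.2 and 13.8 CPM, and Phf11d at 17.1 and 16.3 CPM. Their log2 ratios were -0.54 and -0.57 with TMM, and -0.04 and -0.07 with total counts. Xaf1, a pro-apoptotic factor that counters XIAP, was at 14.1 CPM in library 1 and 7.22 in library 2, within background in the latter.

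Of the growth and signalling regulators, Slfn2, which is needed for quiescence of immune cells, was at 65.4 CPM in library 1 and 37.0 in library 2. Trim30a, a negative regulator of Toll-like receptor signalling, was at 64.0 and 24.4 CPM. Samd9l, an antiviral and growth-limiting protein, was at 63.5 and 48.9 CPM, and Slfn5 at 49.04 and 23.0 CPM. With TMM all but Samd9l of these 4 were at least 2-fold lower in library 2, against 12.6% of tested genes and 18.5% of those above background.

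The remaining 8 members were all lower in library 2. Lgals3bp, a secreted glycoprotein that binds galectins, was at 144 CPM (95% Poisson interval 141 to 147) in library 1 and 29.7 (28.1 to 31.4) in library 2, a log2 ratio of -2.78. Epsti1 was at 69.0 and 33.5 CPM. Ifi27l2a, a short membrane protein, was at 41.7 and 33.0 CPM per kb. Ifi27 beside it on chromosome 12 was at 9.48 and 6.52 CPM per kb. The partners Nmi and Ifi35 had log2 ratios of -0.84 and -0.85, and Rtp4, which restrains the kinase TBK1, one of -0.97. Ifi44 was at 5.85 and 3.41 CPM, within background in library 2. Its log2 ratio, -1.28 as counted and -8.19 with background subtracted, thus rests on a background-level count there.

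**Figure D4:**
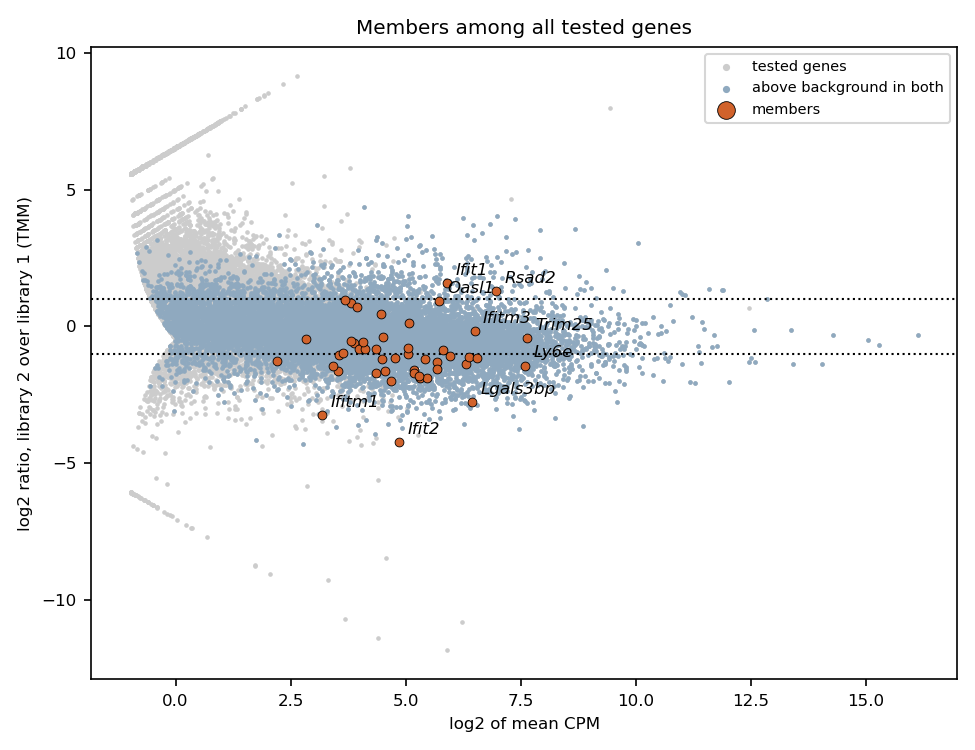
Each point is 1 of 30373 tested genes by log2 of its mean CPM (x axis) and its TMM-scaled log2 ratio of library 2 over library 1 (y axis); genes above background in both libraries are blue and members orange, and dotted lines mark 2-fold. Most members lie below 0, with Ifit2 at -4.25 and Ifitm1 at -3.24 apart from the rest, and Ifit1 and Rsad2 lie above the upper line.

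The rank order of the members was kept in part. Across the 47 members CPM per kb correlated between the libraries with a Spearman rho of 0.721 and a Pearson r of 0.763 for log2 values. Over protein-coding genes above background in both libraries rho was 0.838. These are descriptions across genes, which are not replicates. Of the top 10 members per kb in each library, 6 were shared. The members' median absolute log2 ratio was 1.15, against 0.75 over all tested genes and 0.59 over those above background.

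Apart from Ifnb1 in library 2, no interferon gene of the 21 listed exceeded 3.79 CPM in either library. Ifnb1, the first type I interferon made after sensing, was at 1.52 CPM (95% Poisson interval 1.24 to 1.83) in library 1 and 13.8 (12.7 to 15.0) in library 2, 9.13 times higher in library 2. Per kb of exon it stood at 2.02 and 18.5 CPM, above background in both and at percentiles 59.3 and 92.8 of protein-coding genes. Ifnk, an interferon of keratinocytes, was at 2.65 and 4.70 CPM per kb, above Ifnb1 in library 1 and below it in library 2. Of 21 interferon genes, 10 passed the background limit in library 1, 11 in library 2 and 6 in both. The shares of protein-coding genes that passed were 56.2%, 50.4% and 47.3%. The list summed to 14.2 and 38.3 CPM. Of the 14 tested genes of the list, 7 were at least 2-fold higher in library 2 (against 24.5% of all tested genes) and 1 at least 2-fold lower (against 12.6%), with a median log2 ratio of 1.15. Of these 7, only Ifnb1 was above background in both libraries. The background itself was higher in library 2, with olfactory receptor medians of 0.221 and 0.645 CPM per kb in libraries 1 and 2. Its part in these ratios was not tested. Keratinocyte markers were also higher in library 2, and their part in these values was not tested.

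Receptor and signalling genes were all expressed and mostly lower in library 2. Of 21 genes, 21 passed the background limit of each library, against 47.3% of protein-coding genes in both. At least 2-fold lower in library 2 were 14, against 18.5% of tested genes above background, and 0 were at least 2-fold higher, against 6.23%. Irf7, which amplifies interferon production, was at 101 CPM in library 1 and 23.6 in library 2, a log2 ratio of -2.60. Stat2 was at 72.9 and 49.7 CPM and Irf9 at 48.4 and 29.8 CPM. The receptor genes Ifnar1 and Ifnar2 were at 148 and 132 CPM and at 82.2 and 53.9 CPM. Irf3 was at 27.4 and 28.4 CPM, which gave log2 ratios of -0.45 (TMM) and 0.05 (total counts). The ratio of Irf7 to Irf3 per kb of exon was 3.35 in library 1 (95% interval 3.19 to 3.53) and 0.757 in library 2 (0.695 to 0.824).

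**Figure D5:**
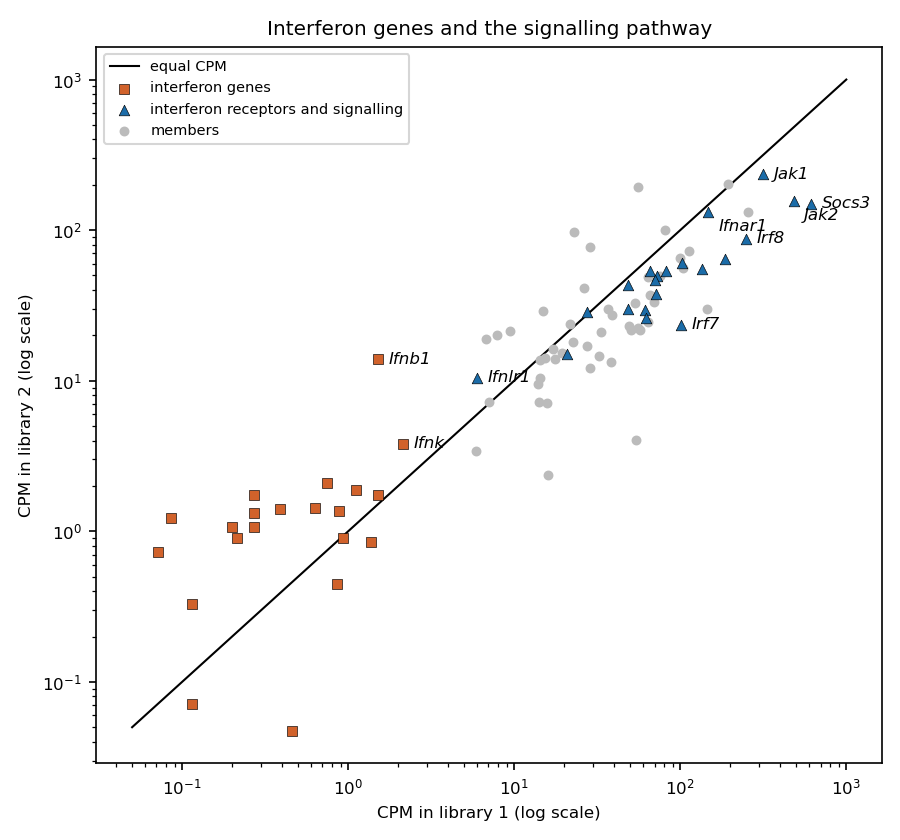
CPM in library 1 (x axis) against library 2 (y axis), both on log scales, for 21 interferon genes (squares), 21 receptor and signalling genes (triangles) and the 47 members (grey); the line marks equal CPM. Ifnb1 lies above the line at 1.52 and 13.8 CPM, and Irf7 below it at 101 and 23.6 CPM.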

How the data were processed

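RNA was sequenced from 2 samples of 1 group, with libraries made from 10 to 70 ng of total RNA by a stranded low-input kit, per the labels' protocols. The authors deposited raw read counts for Ensembl genes, as whole numbers. Per the submitters' processing notes, the build was GRCm38 and the tools included HISAT2, StringTie, Trimmomatic and SAMtools. Annotation, counting settings and use of strand: not given in the sources used here. The column whose name carries the number 2 is library 2; the other is library 1. The labels do not say whether the samples came from different mice. Sex-linked genes had a male pattern in library 1 and a female pattern in library 2, so the libraries were not from the same mouse. The 2 rows without a gene identifier (an empty row and the column totals) were left out. Library totals were 69925160 and 42264685 counts; intervals cover counting error only and take counts as independent.

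Symbols, positions and exon lengths came from GENCODE M21 on GRCm38 (a length for 55227 of 55487 genes). Log2 ratios used TMM sizes from edgeR 4.0.16 (R 4.3.3), a prior count of 1 and genes that reached 1 CPM in 1 library or both; no p-value was computed, since 2 samples of 1 group leave no residual degrees of freedom. Ratio intervals are exact binomial. The ratio and the 2-fold rule were tested on simulated data that held counting error only and were scaled by total counts. That test does not cover TMM scaling or the higher background of library 2. Alternatives were DESeq2 1.42.0 size factors, total counts, other filters, a prior count of 5 and other backgrounds; background subtraction was chosen after seeing the data. Members named with both values were, in each role, the highest by CPM per kb, those within background and those past 2-fold; others may be named beside them. Named pathway genes passed the background limit in both libraries, and each marker list is given by its sum, with single genes named beside it in some lists. Members and lists were chosen with earlier results of these data known. Protein sequences were not used here; exact 75-base stretches shared between transcripts were counted instead. The promoter table (RefSeq, GRCm38.p6) held 36 members; for 35 of them, the last 25 bases of a window occur in a transcript of the same gene.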

Additional observations from a re-analysis of the deposited data

How the results depend on the processing

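The number of members at least 2-fold lower in library 2 was 26 with TMM and 13 with total counts alone, and the number at least 2-fold higher was 2 and 6. The other settings gave 23 to 29 lower and 2 higher. The median log2 ratio of the members stayed negative in all settings, from -1.21 (DESeq2 size factors) to -0.60 (total counts). Between 41 and 45 members were above background in both libraries under the other limits, unscaled CPM and vomeronasal receptor genes as background. With 1 mismatch allowed, 33 of 36 members held the response element in place of 14, against 38.9% of all genes. Taking each library alone gave 44 to 47 members above background, a median level of 6.12 to 10.3 CPM per kb and a summed level of 1774 to 2270 CPM. A ratio of the libraries has no value without either of them. No paired analysis was possible because there is only 1 group. Depth limits little here: the widest 95% counting interval of a log2 ratio was 0.30 to either side (Ifitm1), and a count of 0 would allow 3 counts.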
